A study of Mus musculus with 3 samples.

Results

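The fibrillar collagen genes encode the chains of the collagens that assemble into banded fibrils, the load-bearing elements of dermis, tendon, bone and cartilage. They were taken by name from the table of gene values and comprised Col1a1, Col1a2, Col2a1, Col3a1, Col5a1, Col5a2, Col5a3, Col11a1, Col11a2 and Col27a1. These were 10 of 43472 rows. Transcripts were measured by mRNA-seq with a stranded library kit in primary fibroblasts grown from tail tips of C57BL/6 mice. The monolayer had been scratched with a pipette tip and received the soluble micrograft (MG), a cell-depleted extract of minced mouse skin diluted in growth medium. PD0325901, an inhibitor of the kinase MEK and therefore of ERK signalling, was present as well, and RNA was collected at 5 h. The 3 libraries carry the labels replicate 1, 2 and 3 of this single group. Whether they came from separate animals or cultures, and the age of the animals, is not stated, so the spread between them may in part be technical. Cultures without the inhibitor or without the MG were not analysed here, so all comparisons below were between genes or between replicates, and none was a test of treatment.

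Collagen chains are made as procollagens in the endoplasmic reticulum, where prolines and lysines are hydroxylated before the chains wind into a helix. Outside the cell the propeptides are removed, the molecules pack side by side and lysyl oxidases cross-link them. Type I collagen, built from the products of Col1a1 and Col1a2, is the main fibril of skin and tendon, and type III, from Col3a1, joins it in early wound tissue. Type V chains, from Col5a1, Col5a2 and Col5a3, nucleate these fibrils and limit their diameter. Type II, from Col2a1, is the main fibril of cartilage, where type XI chains from Col11a1 and Col11a2 play the part of type V. Col27a1 encodes a fibrillar chain of developing cartilage whose longest unbroken helical repeat is shorter.

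The libraries held between 17244505 and 27037783 reads on genes. Values are normalized counts, the reads on a gene divided by a size factor of the library, and the upper limit behind a count of 0, taken as 3 reads, lay between 2.11 and 3.56 normalized counts. Detection required that no library fell under 10 normalized counts, and 12204 genes met this, 28.1% of all rows. Of the fibroblast markers, 8 of 8 were detected, and Vim, encoding the intermediate filament vimentin, had between 85416 and 104067 normalized counts. The range exceeded 2-fold in 3 of the 8, Lum, Dcn and Thy1. Thy1, a surface marker of many fibroblasts, had 2031, 15760 and 1652 in replicates 1, 2 and 3, and Col14a1, encoding a fibril-associated collagen, 20.8, 1520 and 7.11. Replicate 2, where Col2a1 and Col11a1 were lowest, thus stood apart in these genes as well, and their part in the collagen levels was not tested. Of 7 keratinocyte markers 1 was detected, and Krt15 and Krt1 had no reads. Endothelial markers summed to between 55.7 and 244 normalized counts per library and leukocyte markers to between 76.8 and 670, with 1 of 6 detected in each list. Most of the 244, in replicate 2, came from Tek, which had 6.95, 185 and 2.37. Skeletal muscle markers summed to between 2641 and 8494, most of it from Acta1, with 2 of 5 detected and Myod1 at 0. Des, encoding the muscle filament desmin, had 212, 1208 and 77.0, also highest in replicate 2. The range of a gene is the fold between its highest and its lowest library, and it exceeded 2 in 22.0% of detected genes. Without replicate 2 this share was 6.68%.

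The members were chosen by name as a family, so the gene structure they share is described here and is no independent result. In the GENCODE M21 models of GRCm38, each principal transcript had between 51 and 67 exons. A fibrillar chain is a long repeat of glycine followed by a pair of other residues, and this repeat was read from the coding sequence as the longest run of codon triplets that open with a glycine codon, GGN. The run held between 337 and 344 repeats in 9 genes and 217 in Col27a1, where 24 of 33 exons of 54 bases lay inside it. All 435 exons lying wholly inside these runs had a length divisible by 9 bases, and all 435 began with a glycine codon. Of them, 260 (59.8%) were exactly 54 bases long. Over whole transcripts, 272 of 589 member exons (46.2%) were 54 bases long, against 0.569% of 220684 distinct exons of all protein-coding genes, members included. One such exon is shown for a type I, a type III, a type V and a type XI chain, because the same frame recurs in genes whose levels in these cells lay far apart. Capitals mark the glycine codon that opens each triplet of the repeat.
Col1a2, exon 8, chr6:4515481-4515534, plus strand: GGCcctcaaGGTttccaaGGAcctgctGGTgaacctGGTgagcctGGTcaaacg
Col3a1, exon 6, chr1:45325360-45325413, plus strand: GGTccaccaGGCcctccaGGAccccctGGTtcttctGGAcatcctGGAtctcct
Col5a1, exon 15, chr2:27965251-27965304, plus strand: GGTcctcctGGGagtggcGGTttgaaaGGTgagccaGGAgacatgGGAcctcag
Col11a1, exon 15, chr3:114108281-114108334, plus strand: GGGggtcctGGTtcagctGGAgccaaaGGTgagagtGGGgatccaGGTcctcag
Each of these exons holds 6 triplets opened by glycine, and those of Col5a1 and Col11a1 hold a further glycine codon inside a triplet, left in lower case. The genes otherwise differed in extent, from 16.8 kb for Col1a1 (chromosome 11, 94936224 to 94953042, plus strand) to 190 kb for Col11a1 (chromosome 3, 114030540 to 114220718, plus strand).

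All 10 genes were detected, with mean normalized counts from the highest of any gene down to fewer than 100. Col1a1 had the highest mean of any gene by normalized counts, Col5a2 ranked 6, Col1a2 15, Col5a1 23, Col3a1 61 and Col5a3 234. Col2a1 ranked 832, Col11a1 2048, Col27a1 7549 and Col11a2 10150. The members took 2.23%, 2.35% and 3.27% of all reads on genes in replicates 1, 2 and 3, which averaged 2.62% ± 0.570 (SD, n = 3). Normalized counts grow with transcript length, so levels between genes were compared per kb of exon.

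**Figure D1:**
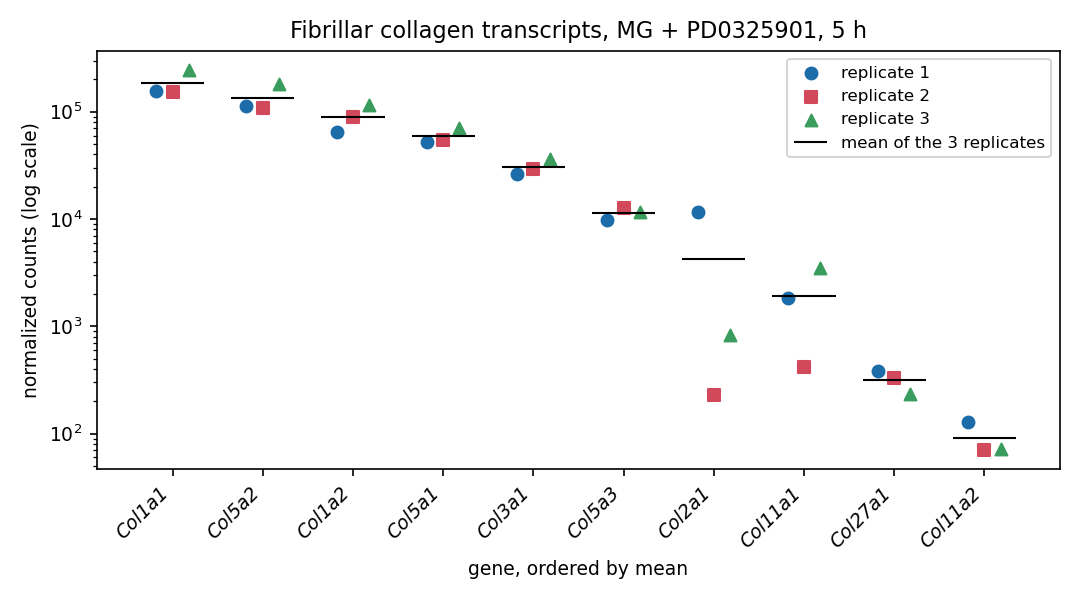
Normalized counts (log axis) of the 10 fibrillar collagen genes in each replicate, ordered by mean, with the mean as a horizontal line. Col2a1 runs from 229 to 11538 and Col11a1 from 415 to 3514, while the 3 points of every other gene lie within 1.84-fold of each other.

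Type I collagen had the highest summed level per kb of any type, through Col1a1. Col1a1, which encodes the α1(I) chain, had 157553 normalized counts in replicate 1, 154124 in replicate 2 and 246175 in replicate 3. Its mean was 185951 ± 52184 (SD, n = 3). Replicates 1 and 2 were close and replicate 3 stood 56.2% above the nearer of them. Col1a2 (chromosome 6, 4504814 to 4541544, plus strand), which encodes the α2(I) chain, had 64375, 88384 and 116185. Its lowest library was replicate 1 and its highest, as for Col1a1, replicate 3. Per kb of exon, the ratio of Col1a1 to Col1a2 was 4.63, 3.30 and 4.01, a mean of 3.98 ± 0.667 (SD, n = 3). This ratio depends on the length used, since the annotated exons of Col1a2 together span 12.4 kb and its longest transcript 5.35 kb. With the longest transcript as length the ratio was 1.90 ± 0.318 (SD, n = 3). The protein holds both chains, with α1(I) in excess of α2(I).

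Col3a1 (chromosome 1, 45311538 to 45349706, plus strand), which encodes the single chain of type III collagen, had 26077, 29233 and 36545 normalized counts, in the same order of libraries as Col1a2. Its range was 1.40-fold, and counting error in the library with fewest reads was 0.577%. Per kb, the type I chains together were 11.0, 10.3 and 12.6 times the level of Col3a1. Col5a2 lies 24.6 kb from the end of Col3a1 on the same chromosome (45374321 to 45503282, minus strand), and the pair are transcribed toward each other. Their per kb ratio, Col5a2 over Col3a1, was 4.41, 3.79 and 5.13 in the respective libraries. The neighbours therefore kept their order in each library, at levels that were not equal.

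Type V transcripts were abundant in these fibroblasts. Col5a2, which encodes the α2(V) chain, had 112250, 108384 and 183277 normalized counts. By these counts and per kb of exon it lay above Col1a2 in every library. Per kb of longest transcript it fell just below Col1a2 in replicate 2. Col5a1 (chromosome 2, 27886425 to 28039514, plus strand), which encodes the α1(V) chain found in nearly all type V molecules, had 52422, 54823 and 70813. For both, replicates 1 and 2 lay close and replicate 3 was highest, by 63.3% for Col5a2 and 29.2% for Col5a1 over the next library. Col5a3 (chromosome 9, 20770050 to 20815067, minus strand), encoding the α3(V) chain of more restricted tissue distribution, had 9781, 12558 and 11539. It was the only member highest in replicate 2 and had the smallest range among the members, 1.28-fold. Col5a1 was 4.24 ± 0.712 (SD, n = 3) times Col5a3 per kb. The ratio of Col5a2 to Col5a1 per kb was 1.90, 1.75 and 2.29.

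The make-up of the family by type was stable apart from its cartilage members. Type I accounted for 55.5%, 57.4% and 58.5% of the summed level per kb in replicates 1, 2 and 3, and type V for 36.7%, 36.8% and 36.4%. Type III made up 5.10% ± 0.474 (SD, n = 3). The summed level itself was 52599, 53270 and 80122 normalized counts per kb, so replicate 3 stood apart in amount more than in make-up. The ratio of type I to Col5a1 plus Col5a2 per kb was 1.63, 1.72 and 1.71, a highest value 1.06 times the lowest. With the longest transcript as length, type I had a mean of 57.1% and type V of 34.8%.

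**Figure D2:**
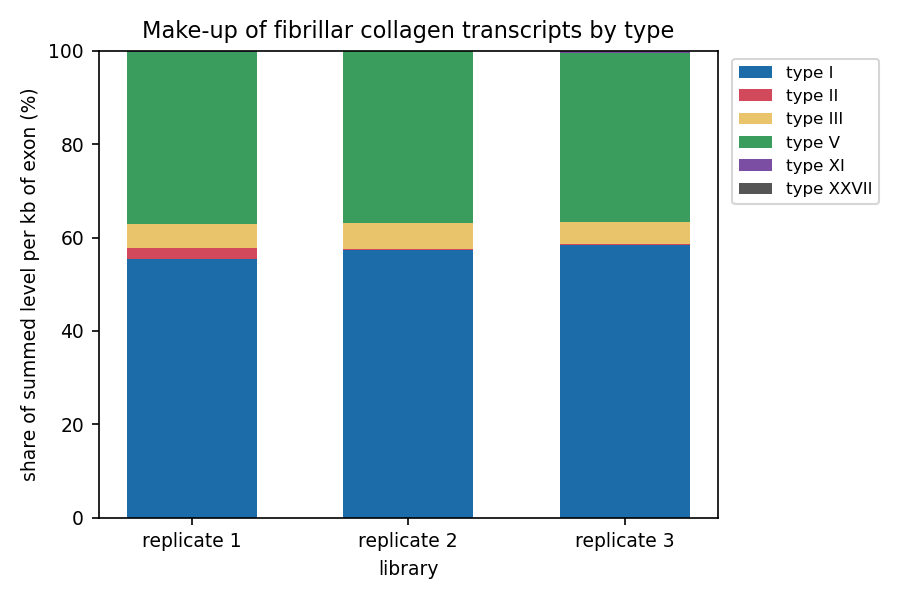
Share of each collagen type in the summed level per kb of exon of the 10 genes (percent, stacked bars from 0 to 100) in each replicate. Type I takes between 55.5% and 58.5% and type V between 36.4% and 36.8%, and type II is visible in replicate 1 alone, at 2.37%.

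Replicate 3 was the highest library for 6 of the 10 members, Col1a1, Col1a2, Col3a1, Col5a1, Col5a2 and Col11a1, against 27.9% of all detected genes. Of the detected genes that averaged 1000 normalized counts or more, 32.1% were highest there. Col2a1, Col11a2 and Col27a1 were highest in replicate 1, as were 31.5% of detected genes and 30.5% of those averaging 1000 or more, and Col5a3 in replicate 2, as were 40.6% and 37.4%. Replicate 2 was the lowest library for 5 members (37.3% of detected genes), replicate 1 for 4 (34.5%) and replicate 3 for 1 (28.3%). The count was 6 as well with libraries scaled by total reads and by TMM factors, where 20.5% and 28.5% of detected genes were highest in replicate 3. The sum of the leukocyte markers was also highest in replicate 3, at 670 against 142 and 76.8 normalized counts, of which Lyz2 made up 601. Laptm5 with 1.74, 4.93 and 36.7, Tyrobp with 0, 2.11 and 15.4 and Cd52 with 0.868, 0.705 and 9.48 were highest there too. These rested on at most 31 reads. Cd74, with 14.8, 5.64 and 5.93, was highest in replicate 1. So was Ptprc, the defining pan-leukocyte gene, at or below 1.74 in each library. The part of these markers in the collagen levels was not tested.

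The spread between replicates was then set against that of other genes. Of the 10 members, 2 had a range of more than 2-fold, Col2a1 and Col11a1, beside 22.0% of all detected genes, so the count was near the background. The median SD of log2(normalized count + 1) over the members was 0.40, against 0.30 over all detected genes and 0.25 over those averaging 1000 normalized counts or more, of which 11.6% exceeded 2-fold. This order depended on replicate 3, without which the medians were 0.21 for the members and 0.30 for all detected genes. They were 0.31 and 0.26 without replicate 1, and 0.50 and 0.20 without replicate 2. The median range over all libraries was 1.67-fold, against 1.49-fold over all detected genes. For Col2a1 only 3 of 12204 genes had a larger range, and for Col11a1 115 did. Col5a3, Col5a1 and Col3a1 lay below the median range of all detected genes. At a limit of 1.5-fold 7 members exceeded it, beside 48.8% of detected genes, and at 3-fold 2, beside 8.01%. Without replicate 2, Col2a1 alone exceeded 2-fold, beside 6.68% of genes. Without replicate 1 or replicate 3 both genes did, beside 13.0% and 15.8%.

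**Figure D3:**
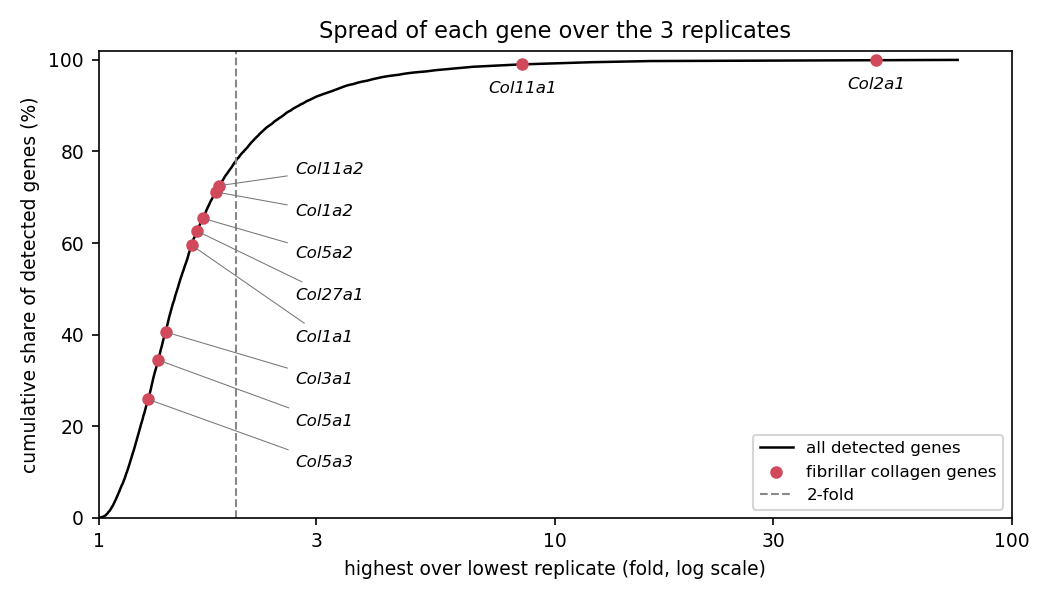
Cumulative share of the 12204 detected genes (percent) against the fold between the highest and the lowest replicate (log axis), with the 10 fibrillar collagen genes as points on the curve. Col5a3 has the smallest range, 1.28-fold, 8 members stay below the 2-fold line, and Col11a1 and Col2a1 lie at 8.47-fold and 50.4-fold.

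Col2a1 (chromosome 15, 97975602 to 98004695, minus strand), the gene of the cartilage fibril, varied most. It had 11538, 229 and 833 normalized counts in replicates 1, 2 and 3, from 13287, 325 and 703 reads. Replicate 1 was 50.4-fold above replicate 2 and 13.8-fold above replicate 3, so the mean describes no library. Counting error was 5.55% in the library with fewest reads. Type II made up 2.37% of the summed level per kb in replicate 1, 0.0465% in replicate 2 and 0.113% in replicate 3. In replicate 1 its level per kb, 1248, came near that of Col5a3, 1436. In such bulk samples fewer cells of a type and less RNA per cell cannot be told apart.

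Col11a1, which encodes the α1(XI) chain, had 1835, 415 and 3514 normalized counts, again lowest in replicate 2 but highest in replicate 3. Its 8.47-fold range was made by replicate 2, since replicates 1 and 3 differed 1.92-fold. Col11a2 (chromosome 17, 34039437 to 34066685, plus strand), which encodes the α2(XI) chain, was the lowest member with 129, 70.5 and 72.3. These rested on 149, 100 and 61 reads. The exact 95% Poisson interval of replicate 1, 109 to 152 normalized counts, did not overlap those of replicates 2 and 3, 57.3 to 85.7 and 55.3 to 92.9. Without molecular identifiers on the reads, such intervals describe the counting error of reads alone, not of molecules, and may be too narrow. The per kb ratio of Col11a1 to Col11a2 was 7.65, 3.18 and 26.2, and that of Col2a1 to Col11a1 was 8.67, 0.761 and 0.327. Over the replicates the highest value of these ratios was 8.25-fold and 26.5-fold above the lowest, beside 1.40-fold for Col1a1 to Col1a2 and 1.31-fold for Col5a2 to Col5a1.

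Chondrocyte markers were read beside these values. Of 15 markers, 6 were detected, with a sum of 4896, 1657 and 5361 normalized counts in replicates 1, 2 and 3. Most of this sum came from Comp, a matrix protein of cartilage and tendon with 2900, 387 and 3082, and from Col10a1, the hypertrophic cartilage collagen, with 971, 773 and 779. Sox9, the transcription factor that activates Col2a1 in chondrocytes, had 171, 149 and 117. Acan, the large proteoglycan of cartilage, had 4.34, 0 and 36.7, and Col9a1 was at or below 0.868 in each library. Matn1 and Chad had 0 reads in all libraries. The markers did not share 1 pattern. Like Col2a1, Sox9, Col10a1, Col9a1, Col9a2, Col9a3 and Ucma were highest in replicate 1. Of these, Sox9 and Col10a1 had ranges of 1.46-fold and 1.26-fold, and Col9a1 rested on 1 read. Col9a3 had 26.9, 9.86 and 13.0, Ucma 12.2, 0 and 3.56, and Col9a2 no more than 6.08. Comp, Acan, Sox5, Sox6, Lect1 and Hapln1 were highest in replicate 3, as Col11a1 was, with Lect1 at no more than 4.74. Hapln1, which links proteoglycan to hyaluronan, had 618, 253 and 933, and Matn3 was highest in replicate 2 at 12.7. Tendon markers summed to 14041, 4021 and 12205, with Fmod at 9346, 762 and 10075 and the tendon transcription factor Scx at 2470, 168 and 1381. Thbs4, with 1957, 2916 and 469, and Tnmd, with 124, 127 and 107, were instead highest in replicate 2. Of 6 osteoblast markers 2 were detected, Runx2 with 596, 444 and 411 and Alpl with 1074, 65.5 and 33.2. Ibsp, with 6.95, 17.6 and 7.11, was highest in replicate 2. Dmp1 and Bglap were at or below 1.74 in each library and Sp7 had no reads. Alpl, Runx2 and Col2a1 had their highest value in replicate 1, and the part of any such cells in the levels of Col2a1 was not tested.

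**Figure D4:**
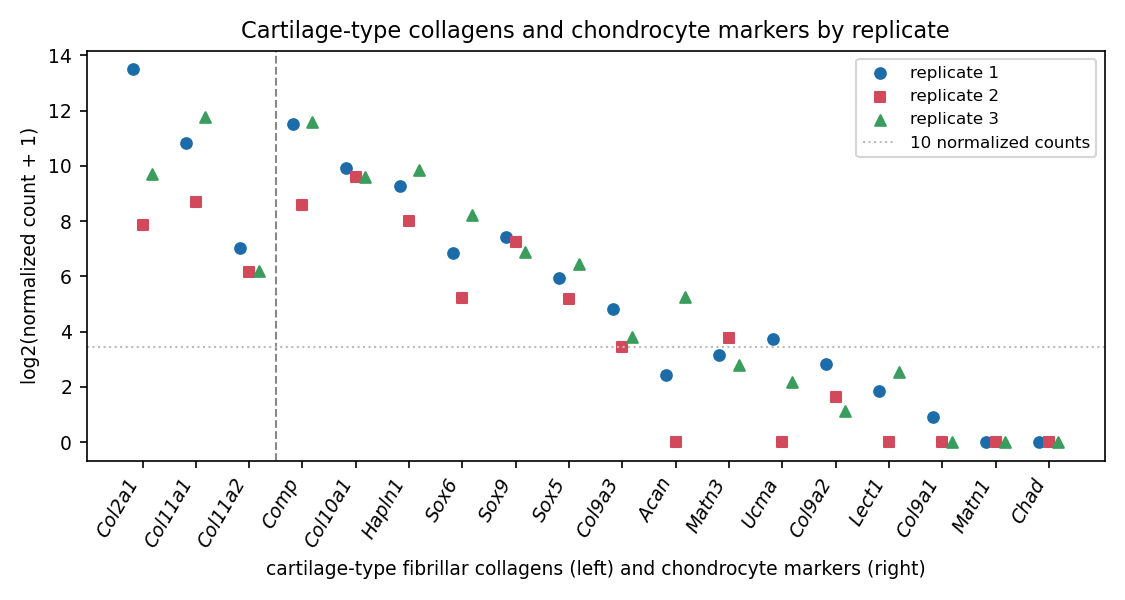
log2(normalized count + 1) in each replicate of the cartilage-type fibrillar collagens (left of the dashed line) and of 15 chondrocyte markers (right), with the detection minimum of 10 normalized counts as a dotted line. Col2a1 is far highest in replicate 1, Col11a1 and Comp are low in replicate 2, and Col9a1, Matn1 and Chad lie at or near 0.

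The genes most like the variable members were sought among 9991 genes that averaged 100 normalized counts or more, by the Euclidean distance of their log2 values after removing each gene's mean. With 3 libraries this describes a shape and no more. Nearest to Col2a1 was Cxcl14, a chemokine gene with 9463, 226 and 871 normalized counts, at a distance of 0.26. It was followed by Slco4a1, a transporter gene with 519, 23.3 and 39.1, at 0.97. Lum came next, which encodes the fibril-binding proteoglycan lumican, with 5073, 289 and 1164, at 1.30. Nearest to Col11a1 were Als2cl with 115, 24.0 and 203 at a distance of 0.09, Homer2 with 625, 110 and 941 at 0.29, and Galnt3 with 162, 27.5 and 236 at 0.32.

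Col27a1 (chromosome 4, 63214004 to 63334991, plus strand) was expressed at a low level. It had 387, 328 and 236 normalized counts from 446, 465 and 199 reads, and was the only member lowest in replicate 3. Its highest library was 1.64-fold above the lowest, and counting error reached 7.09%. Per kb it exceeded Col11a2 in every library.

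Ordered by mean level per kb, the members ran Col1a1, Col5a2, Col1a2, Col5a1, Col3a1, Col5a3, Col2a1, Col11a1, Col27a1 and Col11a2. Of the 9 neighbouring pairs, 7 kept their order in every library. Col1a1 stood above Col5a2 by 1.02 ± 0.04 on the log2 scale (SD, n = 3), and Col5a1 above Col3a1 by 1.17 ± 0.05. Col1a2 and Col5a1 did not differ beyond their spread, at means of 7215 ± 2087 and 6991 ± 1178 normalized counts per kb. Neither did Col2a1 and Col11a1, as Col2a1 was higher in replicate 1 only. The same order of genes was obtained with the longest transcript as length, but then 6 pairs kept their order. Col1a2 was separated from Col5a1 by 1.22 ± 0.23 on the log2 scale, while Col5a2 and Col1a2 were no longer separated and Col5a3 fell below Col2a1 in replicate 1. Among 11642 detected genes with a known length, Col1a1 ranked 16 per kb of exon, Col5a2 37, Col1a2 120 and Col5a1 125. Per kb of longest transcript these ranks were 19, 35, 48 and 159, so that of Col1a2 moved most.

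Genes for making, processing and binding fibrillar collagen were then described in 8 lists that hold 81 genes. Of these, 70 were detected and 18 (25.7%) had a range above 2-fold, near the 22.0% of all detected genes. The hydroxylation and glycosylation list had 14 of 15 genes detected, of which 2 exceeded 2-fold, beside 22.0% of all detected genes. Of the 14, 10 were highest in replicate 3, beside 27.9%. P4hb, a subunit of prolyl 4-hydroxylase, had 40400, 32689 and 47861 normalized counts. Plod2, the lysyl hydroxylase of collagen telopeptides, had 12377, 5839 and 10952, and Leprel1, encoding a prolyl 3-hydroxylase, 60.8, 47.9 and 133. In the folding and export list 9 of 10 were detected and none exceeded 2-fold, beside 22.0% of all detected genes. Serpinh1, the collagen chaperone Hsp47, had 39670, 39992 and 42390, a range of 1.07-fold beside 1.60-fold for Col1a1. Sparc, a collagen-binding matricellular protein, had 146437, 131983 and 172249. The members of this list that spread most, Tmem38b and Sec24d, had ranges of 1.64-fold and 1.58-fold.

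Propeptide removal was the list with the largest share of variable genes. Of its 7 detected genes 5 exceeded 2-fold, beside 22.0% of all detected genes, and 5 were highest in replicate 2, beside 40.6%. Bmp1, the C-proteinase of procollagen, had 4593, 9800 and 5015 normalized counts, highest in replicate 2. Its paralog Tll1 was much lower, with at most 135 and a range of 10.4-fold. Pcolce, which enhances that cleavage, was steadier with 9577, 11105 and 12465, whereas the related Pcolce2 had 208, 34.5 and 409. Of the 5 lysyl oxidase genes 1 exceeded 2-fold, near the 22.0% of all detected genes. This was Loxl1, with 3030, 8468 and 2921, while Lox itself had 123161, 87374 and 99744 and Loxl2 26559, 23770 and 28889. Loxl4 had a range of 1.83-fold.

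Among fibril-associated partners 8 of 12 genes were detected and 5 of them exceeded 2-fold, beside 22.0% of all detected genes. Fn1, encoding fibronectin, on which collagen fibrils are laid down, had 136151, 118311 and 232677 normalized counts, and Bgn, encoding the small proteoglycan biglycan, 53937, 90486 and 78672. Fn1 shared with Col1a1 and Col5a2 a highest value in replicate 3. Lum and Fmod had the widest ranges among the detected partners, 17.6-fold and 13.2-fold, both lowest in replicate 2. Of the receptors, 7 of 8 were detected and 2 exceeded 2-fold, beside the same 22.0%. Itgb1, the β chain common to the collagen-binding integrins, had 36265, 37118 and 42075. Its partner Itga11 had 3498, 1364 and 3510, lowest in replicate 2, and Ddr2, the receptor kinase for fibrillar collagen, 3944, 9665 and 4768, highest there.

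Of 7 degradation genes 4 were detected, and each of the 4 was highest in replicate 3, beside 27.9% of all detected genes. Mmp14, a membrane-bound collagenase, had 13724, 15866 and 20812 normalized counts and a range of 1.52-fold, and Mmp13, a secreted collagenase, 7195, 7901 and 10894. Ctsk, the collagen-cleaving cathepsin K, had 2591, 1712 and 3462, just above 2-fold. Mmp1a, Mmp1b and Mmp8 were below the minimum in at least 1 library. Of 16 regulators all were detected and 2 exceeded 2-fold, beside 22.0% of all detected genes. Ctgf, encoding a matricellular protein induced by TGF-β, had 122412, 58880 and 111854, and Tgfb3, a TGF-β ligand, 8974, 4586 and 5853, both lowest in replicate 2. Larp6, which binds a stem-loop of type I collagen mRNAs, had 117, 123 and 58.1.

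Promoter sequence was available for 7 of the members in RefSeq (GRCm38.p6), namely Col1a2, Col3a1, Col5a1, Col5a3, Col11a1, Col11a2 and Col27a1, and the 250 bases before the start were searched on both strands. Col1a1, Col2a1 and Col5a2 had no entry. The CCAAT box, bound by the factor NF-Y, was present in 3 of 7, against 33.8% of all 32851 promoters. GGGCGG, the GC box, was present in 6 of 7, against 32.7%, and TATAAA in 2 of 7, against 12.4%. The AP-1 type sequence TGANTCA was present in 0 of 7 and in 6.75% of all promoters, which says only that these letters are not in this window. The CCAAT count was near that background. The windows that hold the box are shown only to place it relative to the start. Capitals mark the motif, which in Col11a1 lies on the opposite strand and so reads ATTGG.
Col1a2, chr6:4505497-4505526, plus strand: aaaagaatggaaCCAATttaagaagccccg
Col5a3, chr9:20815172-20815201, minus strand: gatctcagccagCCAATcagcgcgtggtgc
Col11a1, chr3:114030449-114030478, plus strand: gggaggcctgtgATTGGgtatgaccttcag
The motif begins 109, 122 and 79 bases before the RefSeq start in Col1a2, Col5a3 and Col11a1. For Col1a2 the window lies inside the GENCODE span of the gene, which begins at base 4504814. It is therefore not upstream of every annotated transcript of that gene. The NF-Y subunit genes Nfya, Nfyb and Nfyc were all detected, with ranges of 1.56-fold, 1.32-fold and 1.47-fold.

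Overlapping genes could take reads from the members, as the sources do not say whether strand was used in counting. On the opposite strand, 2810430I11Rik overlaps Col5a1 and had 22.6, 50.0 and 23.7 normalized counts, and Gm13372 had at most 1.19. Gm26274, antisense to Col5a3, and Mir455, within Col27a1, had 0 reads. The sense overlaps Gm43921 with Col1a2, Gm47302 with Col3a1 and Gm38211 with Col5a2 have no row under these names. How many reads of the members were assigned to neither gene because of an overlap was not tested.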

How the data were processed

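RNA-seq of 3 libraries of 1 group was used, and 3 further columns of per-sample values that match no label were not used. Per the paper's methods and the labels, adapters were removed, reads were aligned to mm10 with TopHat 2.0.13, and unique reads were counted per gene with HT-Seq 0.5.3p3. The annotation and the strand setting are not given in the sources used here. The deposited signal, made by the authors, is the count of each gene divided by 1 size factor per library. Divided by what 1 read is worth in its library, 100% of values came out whole within 0.01, which gave the reads. Gene names altered to dates stood on 27 rows (0.231% of reads) and 2 names occurred more than once.

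Means, SDs, folds and SDs of log2 values with a pseudocount of 1 were computed in Python 3.11.15 with pandas 2.3.3, and TMM factors in edgeR 4.0.16 on recovered reads. The counting of ranges was tried on simulated reads with counting error and planted changes only. Those reads held no other variation between replicates, which the trial therefore does not cover. Lengths were the union of annotated exons in GENCODE M21. With 1 group no test between conditions was made. The members, gene lists and markers were chosen with earlier results of these data known. The text names all members. From each pathway list it names the detected genes with the highest mean (2) and the widest range (2), from each marker list genes at 0 and examples among the highest, and for each member ranging over 2-fold its 3 nearest genes. The NF-Y genes, Sox9, Acan, Col9a1, Ptprc, Thy1, Col14a1, Hapln1, Scx, Tnmd, Tek, the other chondrocyte, leukocyte and osteoblast markers and the exon comparison were chosen after values were seen. Protein features that had been planned were not computed.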

Additional observations from a re-analysis of the deposited data

How the results depend on the processing

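No paired analysis was possible because only 1 group was analysed. Of 51 values recomputed over 8 results, 43 stayed within the spread or within 1.5 times the count and 8 did not. For the median SD of log2 the spread allowed was 0.857, wider than its value of 0.40, so no fall could leave it. Its value of 0.21 without replicate 3 is therefore among the 43, although it lay below that of all detected genes, 0.30. With a limit of 1.5-fold, 7 members and 43 list genes exceeded it, against 48.8% of detected genes, and with 3-fold 8 list genes did, against 8.01%. Leaving out a replicate gave between 1 and 2 members and between 8 and 15 list genes above 2-fold, lowest without replicate 2 for both. The share of all detected genes above 2-fold was also lowest without replicate 2, at 6.68%. It was 13.0% without replicate 1 and 15.8% without replicate 3. Without division by length the type I share was 53.0% and the ratio of Col1a1 to Col1a2 was 2.10, and with the longest transcript that ratio was 1.90, by the lengths alone. Without replicate 1 the mean type II share fell from 0.844% to 0.0795%. The members numbered 9 at a minimum of 100 normalized counts, which Col11a2 missed. Depth limited Col11a2, which had 61 reads in replicate 3.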

Other observations

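The glycine codons that open the triplets of the repeat differed between members. GGT made up 55.9% of them in Col1a1 and 51.6% in Col1a2, 41.6% in Col2a1, 41.3% in Col3a1, 39.9% in Col11a1 and 35.1% in Col5a2. It was rarer in Col5a1 with 28.1%, Col5a3 with 25.2%, Col11a2 with 21.3% and Col27a1 with 15.7%. The 2 members with the fewest normalized counts, Col11a2 and Col27a1, had the lowest shares and the most abundant, Col1a1, the highest. Between these ends the shares did not follow the mean level. Col5a2, with the next highest mean after Col1a1, lay in the lower part of the range. Col5a1 and Col5a3 had lower shares than Col2a1 and Col11a1, whose means were lower. The comparison was made after the values were seen, across genes that are not independent, and is a description only.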
